A study of Mus musculus with 6 samples.

Results

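The genes described here are 42 genes of G2/M and mitosis, a list of gene names with known roles in cell division. No measured value enters the rule, but the list was drawn up with earlier results of these data known. All 42 were found by symbol among the 55401 genes of the expression table, and all 42 were among the 14209 genes tested, those with at least 1 TPM in at least 3 of the 6 libraries. TPM is a level corrected for transcript length and scaled to the same total in each library, so levels can be set side by side between genes. The libraries came from a mutated derivative of NIH-3T3 with the genotype label Mutation (MU, 3 libraries) and from NIH-3T3 with the genotype label WT (3 libraries). NIH-3T3 is an established line of mouse embryonic fibroblasts. Both groups grew in DMEM with fetal bovine serum and antibiotics, the treatment label of all 6 reads Cultural, and no agent, time or age is given. Which gene was mutated, how, and whether the derivative is 1 clone is not in the labels. Nor do they call the replicates separate cultures, and the p-values therefore cover the spread among these 6 samples, possibly a technical one, and nothing wider.

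Entry into mitosis is driven by cyclin-dependent kinase 1 with cyclins A and B, with help from Polo-like and Aurora kinases. Kinetochores then attach chromosomes to the spindle while the checkpoint proteins Bub1, BubR1 and Mad2 hold back the anaphase promoting complex, and its activator Cdc20 later starts the destruction of securin and the cyclins. Most of these mRNAs are made late in the cell cycle under the MuvB complex with B-Myb and FoxM1, through promoter elements called CHR (cell cycle genes homology region) and CCAAT boxes. They are often used as markers of dividing cells. In RNA from bulk cultures, fewer cells in G2 and mitosis and less RNA per cell cannot be told apart.

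Promoters are shown first because most of the genes share these elements, whichever way their RNA differed between MU and WT. RefSeq promoter windows (GRCm38.p6, from 250 bases before to 50 after the RefSeq start) were matched for 34 of the 42 genes. The letters TTTGAA, the core of the CHR, were found on either strand in 25 of the 34 (73.5%), against 20.2% of all 27025 genes with a window. CCAAT was found on either strand in 26 of the 34 (76.5%), against 41.1% of all genes. Both were present in 22 of the 34 (64.7%), against 7.97% of all genes and 4 of 44 genes of G1/S and DNA replication (9.09%). The alternative core TTTAAA was found in 9 of the 34 (26.5%), against 14.9% of all genes. The searched motifs do not overlap one another in the windows printed here. A match is a description of letters and not of a bound site.

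The windows below run from 150 bases before the RefSeq start to 30 after it, on the strand of the gene. TTTGAA and CCAAT (or ATTGG, its reverse complement) are in capitals. Gene coordinates given later come from GENCODE, and the RefSeq starts of Kif4 and Cenpa lie inside them. The printed Kif4 window is therefore wholly within the GENCODE gene. Kif4 (chrX:100625915-100626094, plus strand), Cenpa (chr5:30666736-30666915, plus strand) and Ect2 (chr3:27153849-27154028, minus strand) are the genes of the list that fell most in MU. Cenpf (chr1:189688057-189688236, minus strand) and Racgap1 (chr15:99651627-99651806, minus strand) rose in MU. Cdk1 (chr10:69352883-69353062, minus strand) had the highest level of the list and did not pass the test.
Kif4: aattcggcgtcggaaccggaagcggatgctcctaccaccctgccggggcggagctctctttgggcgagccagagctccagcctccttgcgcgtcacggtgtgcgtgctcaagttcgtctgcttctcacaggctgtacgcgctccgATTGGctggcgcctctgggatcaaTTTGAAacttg
Cenpa: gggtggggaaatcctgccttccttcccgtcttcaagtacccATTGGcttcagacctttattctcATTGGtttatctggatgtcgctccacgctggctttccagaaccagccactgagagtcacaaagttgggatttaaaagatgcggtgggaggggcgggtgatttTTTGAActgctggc
Ect2: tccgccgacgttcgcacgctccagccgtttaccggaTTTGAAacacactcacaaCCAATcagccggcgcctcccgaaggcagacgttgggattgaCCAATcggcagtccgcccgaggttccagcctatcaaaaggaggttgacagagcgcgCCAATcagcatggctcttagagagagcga
Cenpf: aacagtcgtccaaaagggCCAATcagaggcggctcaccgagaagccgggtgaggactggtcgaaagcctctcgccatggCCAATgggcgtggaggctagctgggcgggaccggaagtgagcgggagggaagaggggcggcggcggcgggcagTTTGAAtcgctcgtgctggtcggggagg
Racgap1: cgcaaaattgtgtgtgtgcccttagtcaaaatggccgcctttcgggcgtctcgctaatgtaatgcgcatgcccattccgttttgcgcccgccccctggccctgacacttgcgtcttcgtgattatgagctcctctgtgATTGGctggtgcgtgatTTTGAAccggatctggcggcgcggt
Cdk1: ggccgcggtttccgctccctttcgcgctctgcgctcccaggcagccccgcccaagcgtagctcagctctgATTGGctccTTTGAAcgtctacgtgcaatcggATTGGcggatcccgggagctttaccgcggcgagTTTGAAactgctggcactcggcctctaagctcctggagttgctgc
Each of these 6 windows holds at least 1 TTTGAA and at least 1 CCAAT, but they were chosen as examples and do not stand for the list. Where a gene had more than 1 window, one with TTTGAA in the printed stretch was preferred. Nusap1 rose more than Racgap1 (log2 fold change 0.42 against 0.38) and is not printed. Among the 5 genes that fell, 4 had both motifs in the longer window, the exception being Birc5, with TTTAAA only. Among the 3 that rose, 2 had both, and no motif was found in the Nusap1 window. Of the 26 genes with a window that did not pass the test, 16 had both.

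WT replicate 2 stood apart from the other WT libraries and touches many of the results below. It had the lowest level of the 3 WT libraries for 27 of the 42 genes, against 45.3% of all tested genes. Its deviation from the WT mean followed GC content (Spearman 0.69 over the 42 genes and 0.44 over all tested genes, as a description). The share of TPM from mtDNA-encoded genes was 13.9 to 15.3% in MU and 8.597 to 12.5% in WT. Fibroblast markers were well above 1 TPM in all libraries (9 of 9 genes, summed to between 11126 and 11633 TPM in MU and between 8554 and 9842 TPM in WT). Of these 9 genes, 4 rose in MU (44.4%, against 7.12% of all tested genes), and none fell. Of the markers of epithelium, of leukocytes and endothelium, of adipocytes and of striated muscle, 1 of 7, 3 of 9, 0 of 6 and 2 of 7 reached 1 TPM, none above 6.23 TPM. Of these, Csf1r (5.34 ± 0.848 TPM in MU and 1.87 ± 0.109 TPM in WT) and Ttn (1.30 ± 0.237 TPM in MU and 0.0857 ± 0.0455 TPM in WT) rose in MU, and Cdh5 (0.105 ± 0.0118 TPM in MU and 1.82 ± 0.861 TPM in WT) fell (SD, n = 3 each). Cldn4, Lep, Cidec, Myod1 and Myog were listed at 0 throughout. The part of the marker and mtDNA levels in the results was not tested, other than by the rescaling without mtDNA-encoded genes.

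Most of the mitotic genes did not pass the test of a difference between MU and WT. The test called 8 of the 42 genes (19.0%), against 18.8% of all tested genes, so the list was called about as often as genes in general. Cenpf, Nusap1 and Racgap1 rose in MU, 3 of 42 against a background of 7.12%. Kif4, Cenpa, Ect2, Birc5 and Bub1b fell, 5 of 42 against a background of 11.6%. The test was limma on log2(TPM + 1), with a Benjamini-Hochberg adjusted p under 0.05 over all 14209 genes, and fold changes are differences on that log2 scale, MU over WT. The groups did not overlap for 22 of the 42 genes (6 higher and 16 lower in MU), against 39.2% of all tested genes (16.1% higher and 23.0% lower).

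The median log2 fold change of the 42 genes was -0.14, against -0.05 for all tested genes. The mean was lower in MU for 32 of the 42, against 55.6% of all tested genes. With median-of-ratios scaling that number was 28, at a list median of -0.09, against -0.008 for all tested genes. Quantile normalization gave 22, at a list median of -0.01, against -0.004 for all tested genes. The share of all tested genes with a lower mean was not read under these scalings, and 55.6% is not their background. For 40 of the 42 genes the log2 fold change lay within 0.5 of 0 in either direction, and for 24 the whole 95% interval did. Summed over the list, the level was 3946, 3997 and 3880 TPM in the MU libraries, against 4519, 3993 and 4534 TPM in the WT libraries. WT replicate 2 was therefore within the range of the MU libraries and the other WT libraries were above it. Without WT replicate 2, limma called 2 genes higher and 13 lower in MU, against 8.11% and 15.8% of all tested genes (23.9% in all). With all libraries and a correction for GC content and length, it called 4 higher and 6 lower, against 9.23% and 14.4% (23.6% in all). The median of the list was then -0.12. Without WT replicate 1 it called 2 higher and 2 lower, against 4.43% and 5.64% of all tested genes (10.1% in all), and without WT replicate 3 it called 1 higher and 3 lower, against 6.93% and 11.2% (18.1% in all). With any 1 of the MU libraries left out, limma called Kif4 alone of the 42. The share of all tested genes called was then 8.15% (3.19% higher and 4.96% lower) without MU replicate 1, 7.54% (3.01% and 4.53%) without MU replicate 2 and 8.47% (3.27% and 5.19%) without MU replicate 3.

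**Figure D1:**
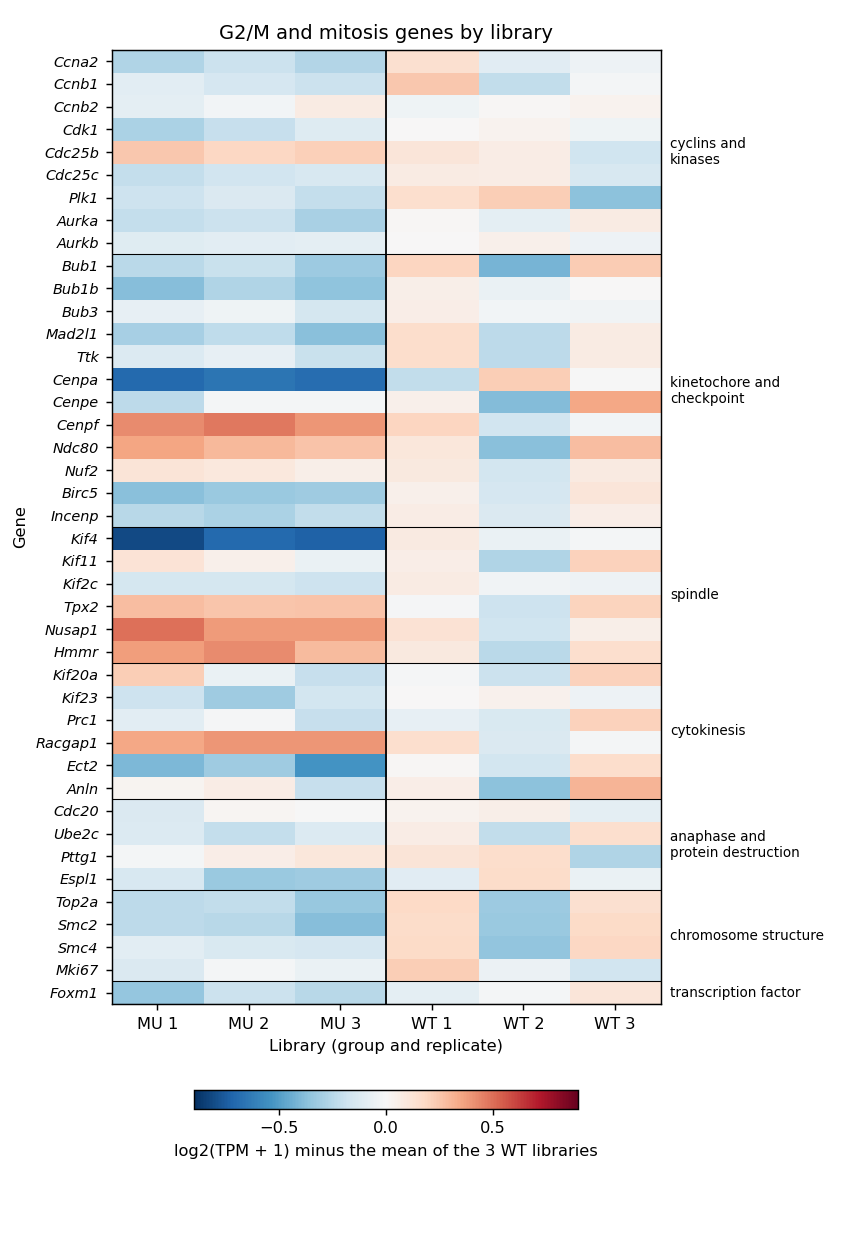
Level of each of the 42 genes (rows, by role) in each library (columns, MU left and WT right), as log2(TPM + 1) minus the mean of the 3 WT libraries, with red above and blue below that mean. The MU columns resemble one another, Kif4 and Cenpa are the darkest blue there, and WT 2 is the lowest WT library in 27 rows.

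The MU libraries were also closer to each other than the WT libraries. The SD of log2(TPM + 1) was smaller in MU for 35 of the 42 genes (83.3%), against 71.8% of all tested genes. Its median over the list was 0.06 in MU and 0.17 in WT.

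**Figure D2:**
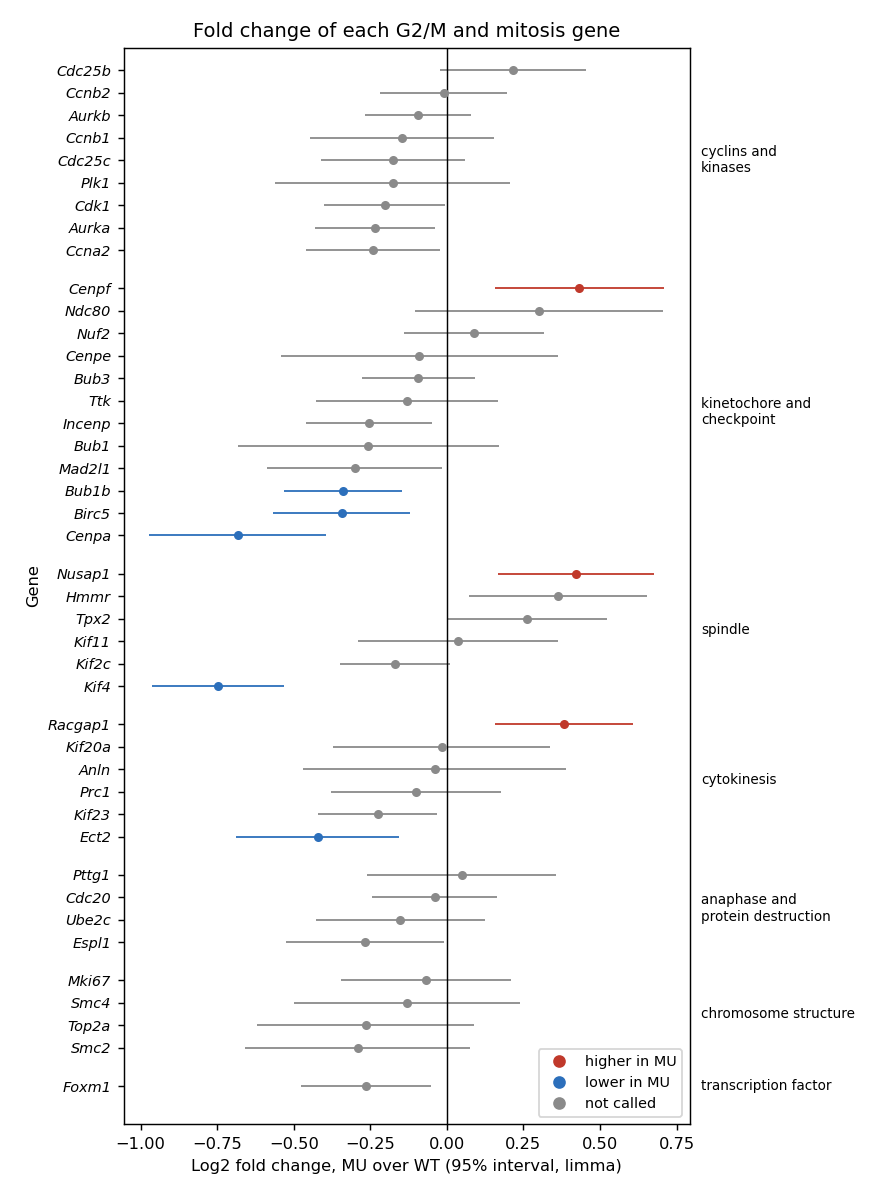
Log2 fold change of each gene, MU over WT (horizontal axis), with its 95% interval from limma, grouped by role, with genes called higher in MU in red, called lower in blue and not called in grey. The kinases and cyclins lie between -0.24 and 0.22, and the 8 called genes sit in the kinetochore, spindle and cytokinesis groups.

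None of the 9 cyclins, kinases and phosphatases that start mitosis passed the test, and their median log2 fold change was -0.18, or -0.10 without WT replicate 1 and -0.04 with quantile normalization. Cdk1, the kinase that drives entry, had 294.7, 310.05 and 331.5 TPM in MU, against 360.04, 367.4 and 349.4 TPM in WT. The groups did not overlap, with every MU library below every WT library, but the log2 fold change of -0.20 (SE 0.08) did not pass (limma adjusted p = 0.142). In a fit that centres the MU values on the neighbouring genes (position centring), Cdk1 did pass, at -0.35 (limma adjusted p = 0.0341, between 0.0341 and 0.768 over 19 alternatives). Ccnb1 encodes cyclin B1, the partner of Cdk1, and had 129.1, 124.6 and 120.7 TPM in MU, against 163.4, 118.3 and 136.5 TPM in WT. Here the groups overlapped through WT replicate 2, and the log2 fold change was -0.15 (SE 0.13, adjusted p = 0.469 by limma). The annotation holds 4 pseudogenes nearly identical to Ccnb1, all at or near 0 TPM in both groups, and reads of Ccnb1 could be lost to such copies in counting.

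Plk1, the Polo-like kinase of mitotic entry and spindle assembly, had 51.8, 53.8 and 50.9 TPM in MU, against 65.7, 68.9 and 45.5 TPM in WT. WT replicate 3 was below all MU libraries and the other WT libraries were above them, at a log2 fold change of -0.18 (SE 0.16, adjusted p = 0.496 by limma). Without WT replicate 3, Plk1 passed the test (limma adjusted p = 0.0322, between 0.0322 and 0.818 over 19 alternatives). Aurka, the kinase of centrosomes and spindle poles, had 61.6, 62.7 and 58.3 TPM in MU, against 72.3, 67.5 and 75.6 TPM in WT. All MU libraries were below all WT libraries, at a log2 fold change of -0.23 (SE 0.08, adjusted p = 0.0957 by limma). Leaving out WT replicate 2 brought it past the test, at -0.28 (limma adjusted p = 0.0394, between 0.0394 and 0.298 over 19 alternatives).

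Aurkb, the kinase of the chromosomal passenger complex, differed little between the groups. It had 63.7, 64.3 and 64.4 TPM in MU, against 68.8, 70.8 and 66.3 TPM in WT, at a log2 fold change of -0.10 (SE 0.07, adjusted p = 0.409 by limma). Its 95% interval ran from -0.27 to 0.08, and the sign turned with quantile normalization (0.01). Cyclin A2 (Ccna2) averaged 113.8 ± 3.49 TPM in MU and 135.1 ± 12.5 TPM in WT, and cyclin B2 (Ccnb2) 26.7 ± 1.58 TPM in MU and 26.9 ± 0.709 TPM in WT (SD, n = 3 each). The phosphatases that activate Cdk1 did not share a sign. Cdc25b averaged 52.3 ± 1.05 TPM in MU and 45.0 ± 4.77 TPM in WT, and Cdc25c 19.6 ± 0.481 TPM in MU and 22.4 ± 1.96 TPM in WT (SD, n = 3 each), neither past the test.

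Among the 12 kinetochore and checkpoint genes, 1 rose and 3 fell, against 7.12% higher and 11.6% lower among all tested genes. Their median log2 fold change was -0.19, and it was -0.12 without WT replicate 1, -0.30 without WT replicate 2, -0.13 without WT replicate 3 and -0.10 with quantile normalization. Cenpa, the histone H3 variant that marks the centromere (chr5:30666777-30674830, mm10), had 127.9, 131.3 and 128.8 TPM in MU, against 178.5, 243.2 and 207.5 TPM in WT. The MU libraries lay close together below the more scattered WT libraries, at a log2 fold change of -0.68 (SE 0.12, adjusted p = 0.0122 by limma). Cenpa passed in 15 of 19 alternatives. It did not pass with any 1 of the MU libraries left out (limma adjusted p between 0.0538 and 0.0558) or with position centring, which gave -0.27 (limma adjusted p = 0.19, between 0.0095 and 0.19 over all alternatives).

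Birc5 and Bub1b fell by less. Birc5 encodes survivin, a subunit of the chromosomal passenger complex, and had 164.3, 169.4 and 170.8 TPM in MU, against 220.5, 192.1 and 230.5 TPM in WT. Its log2 fold change was -0.34 (SE 0.09, adjusted p = 0.0465 by limma), with no overlap between the groups. Bub1b encodes the checkpoint protein BubR1 and had 39.9, 43.2 and 40.5 TPM in MU, against 54.4, 50.2 and 52.5 TPM in WT. Its log2 fold change was -0.34 (SE 0.08, adjusted p = 0.0308 by limma), again without overlap.

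Cenpf went the other way. This large kinetochore protein of G2 and mitosis had 25.7, 26.6 and 25.05 TPM in MU, against 21.7, 16.6 and 18.5 TPM in WT. Every MU library was above every WT library, at a log2 fold change of 0.43 (SE 0.12, adjusted p = 0.0446 by limma). Birc5 passed in 7 of 19 alternatives, Bub1b in 9 and Cenpf in 9, and none of the 3 passed with any 1 of the MU libraries left out. Without WT replicate 3 they had limma adjusted p of 0.0761, 0.0522 and 0.0831, in that order. Leaving out WT replicate 1 also ended the calls of Birc5 and Bub1b (limma adjusted p = 0.126 and 0.0932), and leaving out WT replicate 2 that of Cenpf (0.0548). Over all alternatives the limma adjusted p lay between 0.00957 and 0.302 for Birc5, between 0.021 and 0.128 for Bub1b and between 0.0172 and 0.409 for Cenpf. Position centring reduced the log2 fold change to -0.16 for Birc5 and to 0.16 for Cenpf, both no longer called, and left Bub1b called at -0.31.

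The other 8 genes of this group did not pass, and their values ran in both directions. The checkpoint kinase Bub1 had 50.2, 51.8 and 47.5 TPM in MU, against 68.3, 44.4 and 69.9 TPM in WT, so that WT replicate 2 was below the MU libraries and the other WT libraries above them. Mad2l1, the Mad2 subunit that inhibits Cdc20, averaged 56.9 ± 2.88 TPM in MU and 70.7 ± 9.87 TPM in WT (SD, n = 3 each). Incenp, the scaffold of the passenger complex, averaged 68.1 ± 1.53 TPM in MU and 81.6 ± 6.17 TPM in WT (SD, n = 3 each). Without WT replicate 2 all these genes passed as lower in MU, with limma adjusted p = 0.0105 for Bub1, 0.0166 for Mad2l1 and 0.0199 for Incenp, where the alternatives reached up to 0.652, 0.308 and 0.262. With the GC and length correction of all libraries, Mad2l1 passed (limma adjusted p = 0.0467), while Bub1 (0.184) and Incenp (0.16) did not.

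Subunits of the Ndc80 complex, which binds microtubules at the kinetochore, had means above WT but did not pass. Ndc80 averaged 48.7 ± 1.64 TPM in MU and 40.0 ± 9.13 TPM in WT, and Nuf2 averaged 69.99 ± 1.51 TPM in MU and 65.98 ± 6.47 TPM in WT (SD, n = 3 each). For Bub3, a partner of Bub1, the averages were 109.3 ± 4.6 TPM in MU and 116.6 ± 4.09 TPM in WT. The checkpoint kinase Ttk averaged 21.8 ± 0.961 TPM in MU and 24.1 ± 3.47 TPM in WT, and the kinetochore motor Cenpe 38.8 ± 3.40 TPM in MU and 42.2 ± 10.8 TPM in WT (SD, n = 3 each).

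Among the 6 spindle genes, 1 rose and 1 fell, against 7.12% higher and 11.6% lower among all tested genes. Their median log2 fold change of 0.15 was the only one above 0 among the 7 roles. It was 0.04 without WT replicate 2, 0.25 without WT replicate 3 and 0.26 with quantile normalization. The cytokinesis median also came above 0 with quantile normalization and without WT replicate 3, and the anaphase median with quantile normalization. Kif4, a chromokinesin that shapes mitotic chromosomes and the central spindle (chrX:100625737-100727214, mm10), had 14.7, 15.9 and 15.6 TPM in MU, against 28.1, 25.4 and 26.2 TPM in WT. This was the largest change of the list, at a log2 fold change of -0.75 (SE 0.09, adjusted p = 0.00339 by limma), and the groups did not overlap. It passed in 18 of 19 alternatives, the exception being position centring, at -0.32 (limma adjusted p = 0.0581, between 0.0021 and 0.0581 over the alternatives). Kif4 shares 832 exon bases (15.1% of its exon length) with Pdzd11 on the opposite strand, which averaged 30.6 TPM in MU and 48.0 TPM in WT. The libraries were made with a stranded kit, but no source used here gives the strand setting of the counting. Whether reads from these bases were kept apart is therefore not known.

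Nusap1, a microtubule-bundling protein of the spindle, rose in MU. It had 41.3, 38.3 and 38.3 TPM in MU, against 31.9, 25.5 and 30.2 TPM in WT, without overlap, at a log2 fold change of 0.42 (SE 0.11, adjusted p = 0.0379 by limma). It passed in 11 of 19 alternatives, with limma adjusted p between 0.00966 and 0.138, and not with any 1 of the MU libraries, WT replicate 1 (0.0552) or WT replicate 3 (0.0549) left out. Nusap1 shares 172 exon bases (4.24%) with Oip5 on the opposite strand, at 24.0 TPM in MU and 22.2 TPM in WT.

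The hyaluronan receptor and spindle protein Hmmr and the Aurora A activator Tpx2 were also above WT in every MU library without passing. Hmmr had 60.1, 62.2 and 56.4 TPM in MU, against 49.0, 38.9 and 51.3 TPM in WT (limma adjusted p = 0.085). Tpx2 had 93.4, 91.2 and 92.0 TPM in MU, against 76.0, 67.4 and 88.1 TPM in WT (limma adjusted p = 0.15). Hmmr was called higher with the GC and length correction (limma adjusted p = 0.0101), median-of-ratios scaling (0.0369) and quantile normalization (0.0309), in a range up to 0.424 over 19 alternatives. Tpx2 was called higher with quantile normalization (limma adjusted p = 0.0398) and with WT replicate 3 left out (0.0388), in a range up to 0.316. The remaining motors did not pass. The bipolar spindle motor Kif11 averaged 49.1 ± 3.07 TPM in MU and 48.3 ± 8.09 TPM in WT, and the microtubule depolymerase Kif2c 60.9 ± 0.785 TPM in MU and 68.6 ± 3.08 TPM in WT (SD, n = 3 each).

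**Figure D3:**
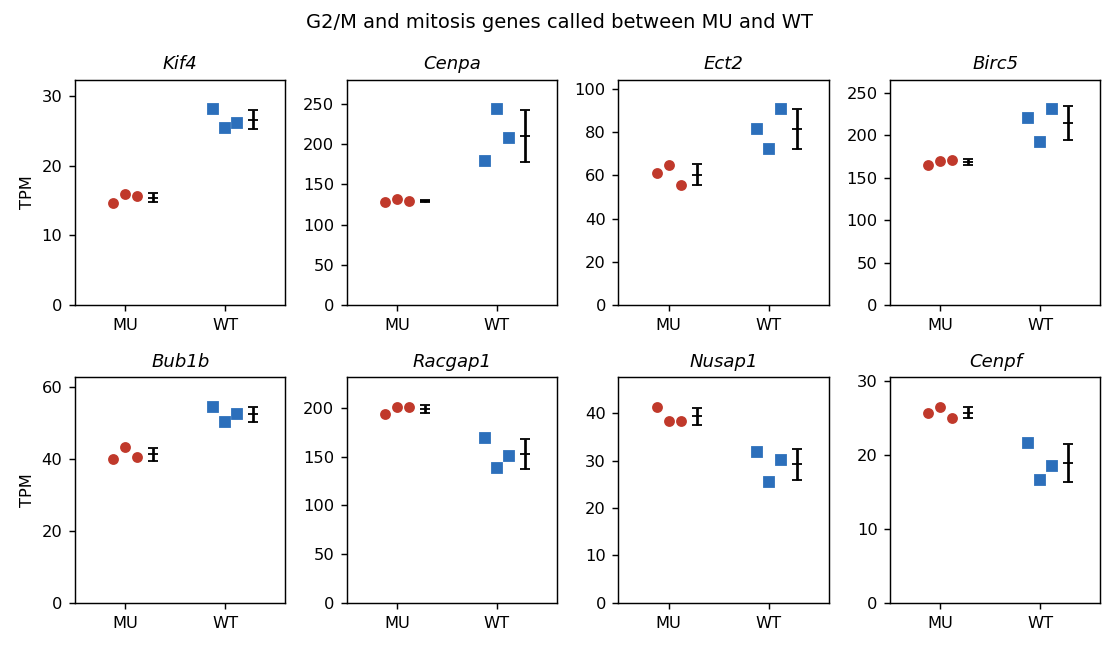
TPM (vertical axes, from 0) of the 8 called genes in each library, MU as red circles and WT as blue squares, with bars for mean ± SD (n = 3 each). Kif4, Cenpa, Ect2, Birc5 and Bub1b lie lower in all MU libraries than in the lowest WT library, and Racgap1, Nusap1 and Cenpf lie higher.

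In cytokinesis, Racgap1 and Ect2, a pair that works on the same small GTPase, RhoA, changed in opposite directions. Racgap1, a subunit of centralspindlin that recruits Ect2 to the central spindle, had 193.96, 200.97 and 200.7 TPM in MU, against 168.6, 138.5 and 150.4 TPM in WT. It rose at a log2 fold change of 0.38 (SE 0.09, adjusted p = 0.0348 by limma). Ect2, the exchange factor that activates RhoA at the cell equator, had 61.0, 64.8 and 55.5 TPM in MU, against 81.5, 72.2 and 90.6 TPM in WT. It fell, at a log2 fold change of -0.42 (SE 0.11, adjusted p = 0.0435 by limma). The groups overlapped for neither gene. Racgap1 passed in 10 of 19 alternatives (limma adjusted p between 0.00945 and 0.207) and Ect2 in 8 (between 0.00814 and 0.146). Neither passed with any 1 of the MU libraries or WT replicate 3 left out, the last giving a limma adjusted p of 0.059 for Racgap1 and 0.0762 for Ect2, and leaving out WT replicate 1 ended the call of Ect2 (0.115). With position centring neither was called, at log2 fold changes of 0.20 for Racgap1 and -0.32 for Ect2.

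The other 4 cytokinesis genes did not pass, and the median of the 6 was -0.07, with the sign turned by quantile normalization (0.06) and by leaving out WT replicate 3 (0.04). It was -0.003 without MU replicate 3, -0.12 without MU replicate 1 or MU replicate 2, and -0.19 without WT replicate 2. Kif23, the motor subunit of centralspindlin and partner of Racgap1, had 68.6, 62.5 and 69.6 TPM in MU, against 78.7, 80.6 and 75.7 TPM in WT (limma adjusted p = 0.102). All MU libraries were below all WT libraries. The midzone bundler Prc1 averaged 195.1 ± 13.2 TPM in MU and 210.3 ± 27.7 TPM in WT, and the ring scaffold anillin (Anln) 171.1 ± 17.2 TPM in MU and 178.6 ± 40.8 TPM in WT (SD, n = 3 each). For Kif20a, a midzone motor, the averages were 108.0 ± 16.6 TPM in MU and 109.2 ± 15.4 TPM in WT, and 29.3% of its exon length overlaps Cdc23 on the opposite strand.

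The 4 genes of anaphase and protein destruction did not pass, at a median log2 fold change of -0.10, or 0.05 with quantile normalization and -0.19 with position centring. Cdc20, the activator of the anaphase promoting complex, had 191.0, 211.6 and 208.4 TPM in MU, against 213.97, 217.4 and 196.8 TPM in WT. The groups overlapped, at a log2 fold change of -0.04 (SE 0.09, adjusted p = 0.786 by limma) and a 95% interval from -0.24 to 0.16. The ubiquitin-conjugating enzyme Ube2c averaged 255.1 ± 9.83 TPM in MU and 285.2 ± 37.7 TPM in WT, and securin (Pttg1) 75.4 ± 3.33 TPM in MU and 73.5 ± 11.6 TPM in WT (SD, n = 3 each). Without WT replicate 2, Ube2c passed as lower in MU, at -0.26 (limma adjusted p = 0.0464, up to 0.98 over 19 alternatives). Separase (Espl1), which cuts cohesin at anaphase, averaged 31.5 ± 2.39 TPM in MU and 38.1 ± 4.00 TPM in WT.

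The 4 genes of chromosome structure did not pass either, and the groups overlapped for all 4. Top2a, the topoisomerase that untangles sister chromatids, had 300.3, 303.9 and 279.5 TPM in MU, against 401.8, 281.9 and 391.4 TPM in WT. WT replicate 2 was within the range of the MU libraries and the other WT libraries were well above it, at a log2 fold change of -0.27 (SE 0.15, adjusted p = 0.267 by limma). Without WT replicate 2, Top2a and the condensin subunits Smc2 and Smc4 passed as lower in MU, with limma adjusted p = 0.012, 0.0144 and 0.0197, where the alternatives reached up to 0.663, 0.483 and 0.979. With the GC and length correction of all libraries none of them passed (limma adjusted p = 0.144, 0.0704 and 0.447). With all libraries, Smc2 averaged 36.7 ± 2.15 TPM in MU and 45.7 ± 8.84 TPM in WT, and Smc4 148.9 ± 3.10 TPM in MU and 165.3 ± 33.1 TPM in WT (SD, n = 3 each). Mki67, which coats mitotic chromosomes and marks cycling cells, had 56.4, 61.1 and 59.4 TPM in MU, against 72.3, 59.8 and 54.9 TPM in WT. The groups overlapped, at a log2 fold change of -0.07 (SE 0.12, adjusted p = 0.728 by limma).

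Foxm1, the transcription factor that drives late cell cycle genes, had 61.6, 68.5 and 65.8 TPM in MU, against 73.6, 77.6 and 84.6 TPM in WT. Every MU library was below every WT library, at a log2 fold change of -0.26 (SE 0.09, adjusted p = 0.0872 by limma), and Foxm1 passed in none of the 19 alternatives. Foxm1's partner B-Myb is encoded by Mybl2, which is outside the list of 42 and fell in MU. It averaged 11.3 ± 1.55 TPM in MU and 21.8 ± 4.70 TPM in WT (SD, n = 3 each), at a log2 fold change of -0.88 (SE 0.18, adjusted p = 0.0208 by limma). Mybl2 was called in 14 of 19 alternatives (limma adjusted p between 0.00749 and 0.0795), and not with MU replicate 1 (0.0788), MU replicate 2 (0.0795) or WT replicate 1 (0.0767) left out, with the replicate block (0.0724) or without a filter (0.0545). E2f4 and Tfdp1, subunits of the repressive DREAM complex that shares the MuvB core, fell as well. E2f4 averaged 68.1 ± 2.82 TPM in MU and 107.7 ± 10.7 TPM in WT, and Tfdp1 106.6 ± 4.23 TPM in MU and 213.5 ± 21.8 TPM in WT (SD, n = 3 each). Their log2 fold changes were -0.65 (limma adjusted p = 0.0065) and -0.99 (limma adjusted p = 0.00184). Of the 14 genes for MuvB and FoxM1 partners, 4 fell (28.6%, against 11.6% of all tested genes) and none rose.

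A wider list of 116 other mitotic genes, of which 114 were tested, gave 2 genes that rose and 15 that fell, at a median log2 fold change of -0.12. That is 1.75% higher and 13.2% lower, against 7.12% and 11.6% of all tested genes. The wider list includes the 14 genes for MuvB and FoxM1 partners, so 4 of the 15 that fell were already counted above. On the whole wider list, the number lower was 6 with any 1 of the MU libraries left out, against 4.53% to 5.19% of all tested genes. It was 7 without WT replicate 1, against 5.64%, and 28 without WT replicate 2, against 15.8%. Both that rose were regulators of entry: Bora, which helps Aurora A activate Plk1, averaged 21.2 ± 1.12 TPM in MU and 15.3 ± 1.44 TPM in WT (limma adjusted p = 0.0296), and Pkmyt1, a kinase that inhibits Cdk1, averaged 32.7 ± 2.94 TPM in MU and 24.2 ± 2.34 TPM in WT (limma adjusted p = 0.0441). With position centring neither passed, at log2 fold changes of 0.13 for Bora and 0.14 for Pkmyt1. Bora passed in 12 of 19 alternatives and Pkmyt1 in 10. Wee1, the other inhibitory kinase, averaged 27.5 ± 1.30 TPM in MU and 25.7 ± 2.25 TPM in WT and did not pass. Cks1b, a small subunit of cyclin-dependent kinases, fell to 208.8 ± 7.01 TPM in MU, against 324.1 ± 31.7 TPM in WT (limma adjusted p = 0.00784). The mitotic kinase Pbk fell to 49.96 ± 4.01 TPM in MU, against 85.3 ± 11.8 TPM in WT (limma adjusted p = 0.0103).

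In the other subgroups the calls were few and all were lower in MU. Shares called lower were 10.3% for kinetochore, 22.2% for cytokinesis, 7.14% for condensin and cohesin and 13.3% for anaphase promoting complex genes. Among all tested genes, 11.6% were lower and 7.12% higher. Of 29 other kinetochore genes 3 fell, among them Cenpi, a centromere subunit, at 14.01 ± 1.07 TPM in MU and 26.7 ± 4.71 TPM in WT, and the checkpoint gene Mad1l1, at 14.97 ± 1.47 TPM in MU and 24.9 ± 4.79 TPM in WT (limma adjusted p = 0.0108 and 0.0304). None of 18 other spindle genes was called. Of 9 tested cytokinesis genes, the citron kinase gene Cit and the abscission gene Cep55 fell, at log2 fold changes of -0.50 and -0.42. Their limma adjusted p was 0.0347 and 0.0424, and they passed in only 7 and 6 of 19 alternatives (up to 0.412 and 0.144). Smc1a was the 1 of 14 condensin and cohesin genes that fell, at -0.55. Of 15 genes of the anaphase promoting complex, Cdc26 and Cdc16 fell, at -0.40 and -0.44, while Fzr1, the activator of late mitosis and G1, averaged 67.0 ± 4.59 TPM in MU and 60.3 ± 5.11 TPM in WT and did not pass. None of these 7 named genes passed with position centring, where the log2 fold change was -0.29 for Cenpi, -0.55 for Mad1l1, -0.17 for Cit, -0.35 for Cep55, -0.07 for Smc1a, -0.24 for Cdc26 and -0.11 for Cdc16. Cenpi passed in 18 of 19 alternatives, Smc1a and Cdc26 in 12, and Mad1l1 and Cdc16 in 11.

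Genes of G1/S and DNA replication, read in the same libraries, were called lower more often than genes in general. Of 53 tested genes 25 fell (47.2%, against 11.6% of all tested genes) and 1 rose, at a median log2 fold change of -0.43. With 1 library left out, between 8 (without MU replicate 1) and 27 (without WT replicate 2) fell, against 4.96% and 15.8% of all tested genes. The number was 9 without MU replicate 2, against 4.53%. It was 11 without MU replicate 3 or WT replicate 1, against 5.19% and 5.64%. Rrm2, the small subunit of ribonucleotide reductase, had 74.3, 78.7 and 69.9 TPM in MU, against 161.9, 143.0 and 165.2 TPM in WT (limma adjusted p = 0.00124). Mcm5, a subunit of the replicative helicase, had 78.5, 81.5 and 83.4 TPM in MU, against 144.2, 156.8 and 143.4 TPM in WT (limma adjusted p = 0.00138). Rpa1, of the single-strand DNA binding complex, rose to 314.2 ± 4.53 TPM in MU, against 249.1 ± 7.88 TPM in WT (SD, n = 3 each; limma adjusted p = 0.025).

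The summed level of the 42 mitotic genes over that of the G1/S genes was 1.24, 1.26 and 1.22 in the MU libraries, against 1.09, 1.03 and 1.10 in the WT libraries. Every MU library was above every WT library, which includes WT replicate 2. The difference between the groups in this ratio was not tested. Of 11 tested genes for inhibitors of the cell cycle and for the p53 pathway, not all of them inhibitors, 3 rose (27.3%, against 7.12% of all tested genes) and none fell. Gadd45g had 49.2, 56.1 and 63.1 TPM in MU, against 20.8, 26.3 and 24.8 TPM in WT (limma adjusted p = 0.00253), and Gadd45b averaged 89.4 ± 1.97 TPM in MU and 57.8 ± 4.78 TPM in WT (limma adjusted p = 0.00544). Both are stress-induced genes that can inhibit Cdk1. Cdkn1a, which encodes the inhibitor p21, averaged 75.7 ± 3.62 TPM in MU and 62.3 ± 3.62 TPM in WT and did not pass (limma adjusted p = 0.0643). It was called higher in 4 of 19 alternatives: the GC and length correction (limma adjusted p = 0.0185), quantile normalization (0.0289), rescaling without mtDNA-encoded genes (0.0323) and leaving out WT replicate 2 (0.0272), in a range from 0.0185 to 0.205. In the authors' deposited table Cdkn1a had an adjusted p of 0.0478.

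**Figure D4:**
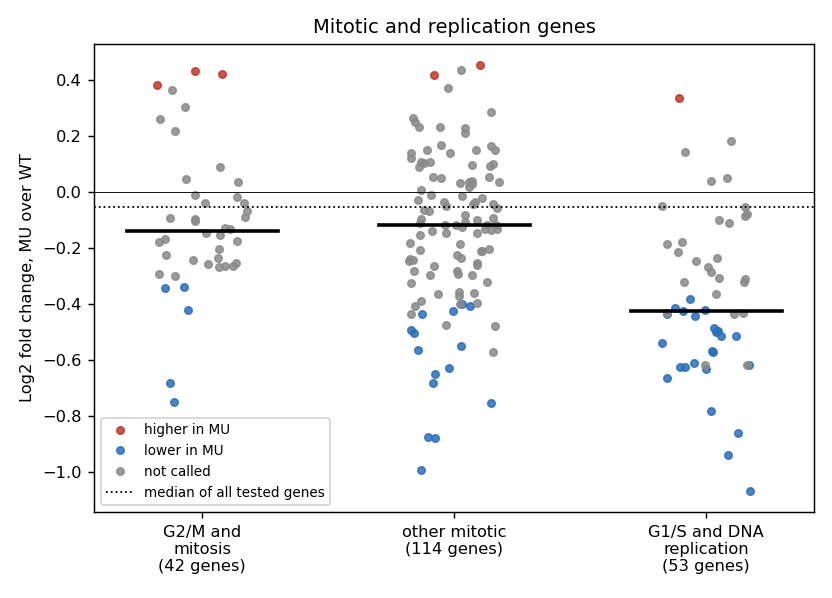
Log2 fold change, MU over WT (vertical axis), of each gene of 3 lists, with red for called higher in MU, blue for called lower and grey for not called, a black bar at each list's median and a dotted line at the median of all tested genes. The medians are -0.14 for the 42 mitotic genes, -0.12 for 114 other mitotic genes and -0.43 for 53 genes of G1/S and DNA replication.

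Kif4 and Cenpa, the genes with the largest changes, lay among neighbours whose levels were also lower in MU. For each gene, the 20 nearest protein-coding genes on each side (fewer at a chromosome end) gave a median log2 fold change, which was set relative to all tested genes. That median was -0.43 for Kif4 on chromosome X and -0.41 for Cenpa on chromosome 5. It was -0.18 for Birc5, -0.10 for Ect2, -0.03 for Bub1b, -0.02 for Nusap1, 0.18 for Racgap1 and 0.27 for Cenpf. Of the 8 called genes, Nusap1 alone had a neighbour median of the other sign. Whole chromosomes differed as well. Over their tested protein-coding genes the median was -0.24 on chromosome X (73.4% lower in MU) and -0.24 on chromosome 5 (70.3% lower). Among chromosomes that hold members it ran from -0.27 (chromosome 18) to 0.10 (chromosome 10). Across the 42 genes the fold change and the neighbour median correlated at a Pearson r of 0.58 and a Spearman rho of 0.41, against 0.21 and 0.26 across all tested genes. These correlations are across genes, which are not independent replicates, and they share the same 6 libraries. The part that chromosomal position has in these changes was not tested. After position centring, limma called Nusap1 higher and Cdk1, Bub1b, Kif23 and Espl1 lower in MU, against 6.28% and 8.63% of all tested genes (14.9% in all).

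**Figure D5:**
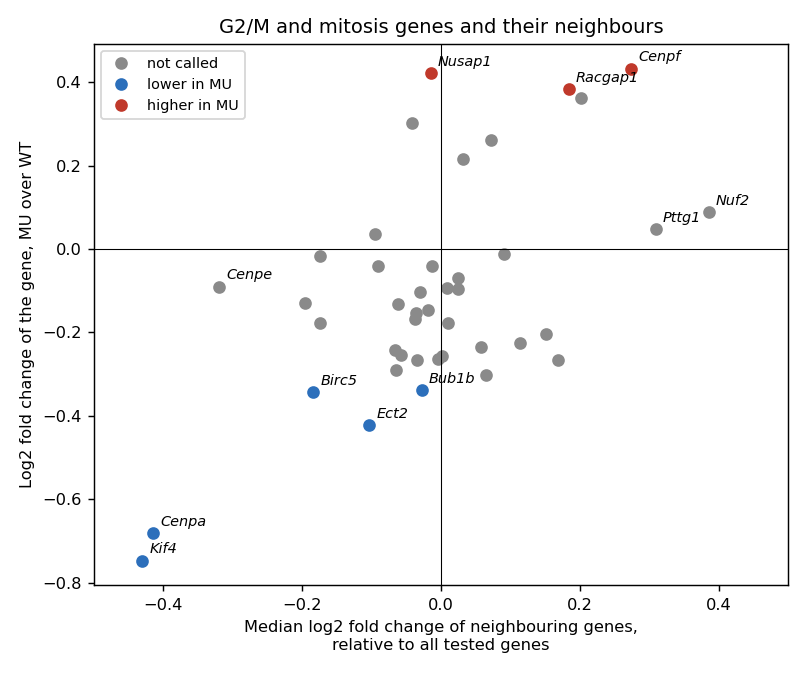
Log2 fold change of each of the 42 genes, MU over WT (vertical axis), against the median log2 fold change of its neighbouring protein-coding genes relative to all tested genes (horizontal axis), with genes called higher in MU in red, called lower in blue and not called in grey. Kif4 and Cenpa lie at the lower left, at neighbour medians of -0.43 and -0.41, and Cenpf and Racgap1 at the upper right.

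The authors' deposited table of fold changes gave a similar set of calls. At an adjusted p under 0.05 it held 9 of the 42 genes (4 higher and 5 lower in MU), against 21.1% of the 17009 genes with an adjusted p in the authors' deposited table (9.42% higher and 11.6% lower). The 8 genes called by limma were among the 9, in the same directions, and the authors' deposited table added Hmmr, at a log2 fold change of 0.41 and an adjusted p of 0.00821. In the authors' deposited table Kif4 was at -0.71 with an adjusted p of 1.03e-08, and Cenpa at -0.62 with an adjusted p of 0.000261.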

How the data were processed

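RNA of 6 NIH-3T3 samples was read from poly(A) libraries made with a stranded mRNA kit, per the labels' protocols. Per the file headers and the values, the authors deposited expression as log2(TPM + 1) with few digits, so that abundant genes move in steps. The authors' deposited table of comparisons holds a log2 fold change, a p-value, an adjusted p and mean TPM per group. The submitters' processing notes name DESeq2 1.20.0, featureCounts 1.5.0-p3, HISAT2 2.05.0, FastQC 0.11.4 and the build mm10. What each tool did, the strand setting and the TPM method were not given in the sources used here. TPM keeps no depth, so depth is unknown and no counting interval or floor was computed.

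Values were tested as log2(TPM + 1), a scale that understates the change of low genes, with limma 3.58.1 in R 4.3.3 (two-sided, intensity trend, no covariate), in 14209 genes with at least 1 TPM in at least 3 libraries. Intervals are 95% moderated intervals. The members, lists and tests were chosen with earlier results of these data known. All 42 members could be named, with values per library for those called and for 10 core genes (those of Bub1, Hmmr, Tpx2 and Kif23 were added after their values were seen), and from other lists at most 2 called genes in each direction by smallest adjusted p, plus Cdkn1a, Mybl2, Fzr1 and Wee1. Positions came from GENCODE release M21 (GRCm38, the assembly of mm10). Overlaps were read from its exons and near-identical copies found with BLAST 2.17.0. The 19 alternatives were each library left out, no trend, robust estimation, quantile normalization, median-of-ratios scaling, TPM rescaled after removing mtDNA-encoded genes, a TPM minimum of 5 or none, a pseudocount of 0.1 or 5, the replicate number as a block, a loess correction for GC content and length (span 0.3) with and without the block, and position centring, which subtracts from MU the median fold change of the nearest protein-coding genes, 20 or fewer each way.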

Additional observations from a re-analysis of the deposited data

How the results depend on the processing

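Counts of calls depended on the setting. All genes called were 2667, or 1093 with the replicate block and between 1071 and 3391 with 1 library left out. Of the 42 genes, 3 were called higher, against 0 with the replicate block, without the trend and without a filter, 1 with position centring and with the GC and length correction plus the block, and 5 with quantile normalization. The number called lower was 5, against 2 with the block, without the trend, with quantile normalization and with rescaling without mtDNA-encoded genes, and 3 without a filter and with the correction plus the block. With 1 library left out they were between 0 and 2 higher and between 1 and 13 lower. In those fits, 3.01% to 8.11% of all tested genes were called higher and 4.53% to 15.8% lower. The shares of all tested genes called higher and lower were then 3.21% and 4.48% with the block, 7.04% and 10.3% without the trend, 2.26% and 3.85% without a filter, 8.88% and 9.30% with quantile normalization, 8.20% and 8.66% with the rescaling, and 5.41% and 8.13% with the correction plus the block. Of the other mitotic genes, 2 were higher, against 0 with the block, without a filter and with position centring and 1 without the trend (0 to 2 with 1 library left out), and 15 were lower, against 5 with the block and 8 with the correction plus the block (6 to 28). Of the G1/S genes, 1 was higher, against 0 with the block, alone or with the correction (0 to 1), and 25 were lower, against 8 with the block and 16 with the correction plus the block, without a filter and with quantile normalization (8 to 27).

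After each group's mean was subtracted per gene, same-numbered MU and WT libraries correlated at 0.05, 0.02 and -0.07 over the tested genes. These are correlations of deviations and not of whole profiles, and differently numbered libraries were not compared. With the replicate block, Kif4 (limma adjusted p = 0.0341) and Cenpa (0.0417) remained called. The causes were not tested. Leaving aside the cell type markers, no named gene that was called changed sign in any of the 19 alternatives. The signs of the markers in the alternatives were not read.

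Some genes not called changed sign. With quantile normalization the log2 fold change became 0.0593 for Ccnb2, 0.014 for Aurkb, 0.0385 for Bub3, 0.120 for Kif20a, 0.029 for Prc1, 0.084 for Anln, 0.0928 for Cdc20, 0.0047 for Ube2c, 0.007 for Smc4 and 0.0354 for Mki67. Median-of-ratios scaling gave 0.0405 for Ccnb2, 0.0363 for Kif20a, 0.0128 for Anln and 0.0132 for Cdc20, and rescaling without mtDNA-encoded genes gave 0.0519, 0.0478, 0.0244 and 0.0248 for the same genes. The GC and length correction, with or without the block, gave 0.0255 for Kif20a. Position centring gave 0.23 for Cenpe, -0.30 for Nuf2, 0.158 for Kif20a, 0.0508 for Cdc20, -0.261 for Pttg1, 0.0673 for Smc4, -0.0612 for Fzr1 and -0.0367 for Wee1. With 1 library left out the log2 fold change lay between -0.0543 and 0.0272 for Ccnb2, -0.285 and 0.0833 for Cenpe, -0.0977 and 0.142 for Kif11, -0.134 and 0.0868 for Kif20a, -0.171 and 0.0025 for Prc1, -0.223 and 0.113 for Anln, -0.0838 and 0.0053 for Cdc20, -0.0882 and 0.127 for Pttg1, and -0.154 and 0.0415 for Mki67. Depth is unknown, and with 3 libraries a group the median 95% half-width over the 42 genes was 0.26 on the log2 scale.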
